A study of Mus musculus with 10 samples.

Results

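Mature oligodendrocytes were examined in single-nucleus RNA-sequencing data from punches of the mouse paraventricular thalamus (PVT) and the tissue around it. They were taken as every nucleus that the deposited annotation places in an oligodendrocyte cluster, with the oligodendrocyte precursor cells (OPCs) left out, and made up 2462 of 20503 nuclei. The annotation divides them into a cluster of 2246 and a cluster of 216 nuclei. The other 7 types were neurons (10410 nuclei), OPCs (473), fibroblasts (179), endothelial cells (215), microglia (993), astrocytes (5302) and ependymal cells (469).

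The nuclei came from 10 libraries of fresh tissue of C57BL/6J mice aged 12 weeks, with no genotype or treatment that differed between libraries. Each library pooled punches from several mice, so a library is a replicate and a single animal cannot be read. Female libraries 1 to 6 carry the sex in their titles. The other 4 libraries carry no sex in their titles and are called male libraries 1 to 4 here after the sex column deposited with the nuclei. They held 74, 113, 440 and 1054 oligodendrocyte nuclei, and the female libraries held 163, 111, 110, 110, 182 and 105. Oligodendrocyte counts of unique molecular identifiers (UMIs, one for each captured transcript) summed to between 198353 and 2446196 per library. The male and female sets also differed in depth and in which genes had counts, so that sex, sequencing depth and gene annotation cannot be told apart in any comparison between them. Cell barcodes were shared between libraries by 92 nuclei, of which 14 were oligodendrocytes, and only 3 pairs of shared barcodes joined an oligodendrocyte to another one.

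Oligodendrocytes are the glial cells that wrap axons of the central nervous system in myelin, a stack of compacted membrane that speeds conduction. They arise from OPCs through committed and newly formed stages, in which precursor genes are switched off while the transcription factor Myrf, acting with Sox10, turns on the genes of myelin proteins and lipids. Mature cells also couple to astrocytes through gap junctions and supply axons with metabolites.

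The 3 genes given as markers of the cells were high in every library. Mal (chr2:127633226-127656695, minus strand, RefSeq GRCm38.p6) encodes a proteolipid that sorts lipids and proteins to the myelin membrane. Its level, in CPM (UMIs summed over the cells of a library and scaled to one common total after TMM normalisation), was 1223, 5125, 2929 and 1314 in male libraries 1 to 4 and 5057, 2127, 3613, 2812, 4100.4 and 5855 in female libraries 1 to 6. The next type, endothelial cells, averaged 255 CPM, while neurons averaged 8.47 CPM. The lowest oligodendrocyte library lay above the mean of every other type, but Mal varied widely among the oligodendrocyte libraries themselves, and the male and female values overlapped.

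Mag (chr7:30899175-30914922, minus strand) encodes myelin-associated glycoprotein, an adhesion molecule of the membrane that faces the axon. It stood at 1964, 1788, 2079.9 and 1226 CPM in the male libraries and at 2634, 1649, 1868, 1756, 2441 and 2073 CPM in the female libraries. Microglia came next with 31.5 CPM. Mog (chr17:37010740-37023398, minus strand), myelin oligodendrocyte glycoprotein, lies on the outermost myelin layer. It was measured at 925, 1916, 1595 and 934 CPM in the male and at 1745, 996, 1384, 1400.0, 1477 and 1344 CPM in the female libraries, against 11.8 CPM in endothelial cells, the next type. For both genes the ranges of the male and female libraries overlapped.

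**Figure D1:**
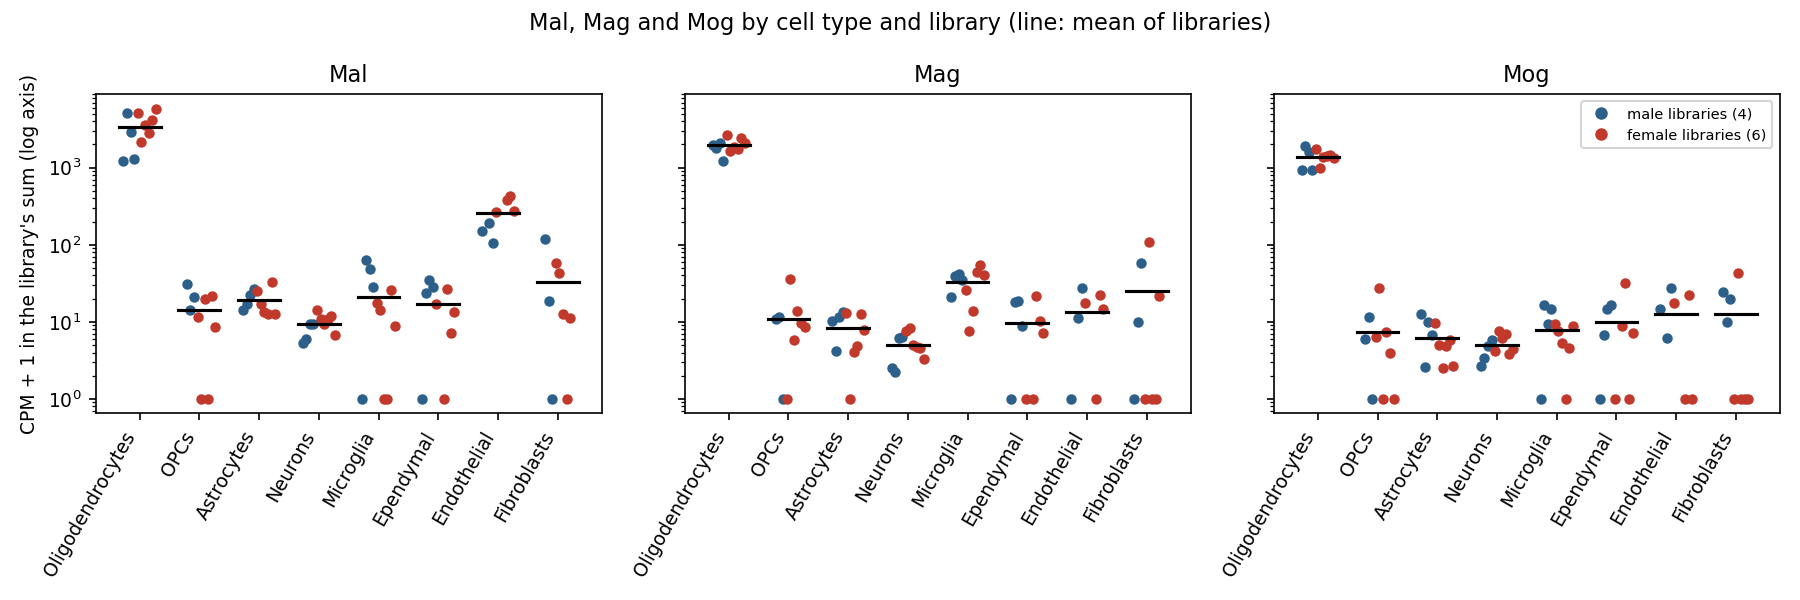
Level of Mal, Mag and Mog (y axis, CPM + 1, log axis) in the UMI sums of each cell type (x axis), with 1 point for each library (blue male, red female) and a line at the mean of the libraries. Oligodendrocyte points lie between 925 CPM (Mog) and 5855 CPM (Mal), and Mal in endothelial cells (mean 255 CPM) is the highest level outside oligodendrocytes.

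Mal, Mag and Mog were each found in most oligodendrocyte nuclei. With each nucleus thinned to 1000 UMIs, which 2309 of the 2462 oligodendrocytes reached, Mal was found in 74.8 ± 11.6% (SD, n = 10 libraries), Mag in 76.4 ± 7.03% and Mog in 66.1 ± 9.28% of nuclei. Without thinning the shares were 87.0%, 91.6% and 84.3% at a median of 2311.5 UMIs. Neurons, which lack these proteins, gave 0.919%, 0.326% and 0.409% after the same thinning (median 11155 UMIs before it) and 6.28%, 2.93% and 3.05% without it. The highest shares in OPCs, astrocytes, microglia or neurons after thinning were 1.96% for Mal in astrocytes, 2.51% for Mag in microglia and 0.512% for Mog in OPCs. These shares are read as background.

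The sequence just before each start site is shown for the 3 markers, for Cnp, whose level differed between the sets of libraries, and for Mobp, which held the most copies of a searched motif among the 7 promoters in which copies were counted. Each run is the 250 bases before the most upstream start listed by RefSeq for GRCm38.p6, 5′ to 3′ in the direction of the gene. Capitals mark 3 short motifs. ACAAAG, which reads on the other strand as CTTTGT, is a core bound by Sox factors. ACAATG, whose other strand reads CATTGT, is a variant of that core. CTGGCAC, on the other strand GTGCCAG, lies within the motif of Myrf. They were searched on both strands, and a base may belong to more than one of them.

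Mal (chr2:127656696-127656945, minus strand): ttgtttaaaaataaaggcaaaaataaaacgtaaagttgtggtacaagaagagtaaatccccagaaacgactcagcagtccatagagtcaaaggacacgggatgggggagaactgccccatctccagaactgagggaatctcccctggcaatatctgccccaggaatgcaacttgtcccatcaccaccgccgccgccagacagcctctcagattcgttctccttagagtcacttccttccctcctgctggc
Mag (chr7:30914923-30915172, minus strand): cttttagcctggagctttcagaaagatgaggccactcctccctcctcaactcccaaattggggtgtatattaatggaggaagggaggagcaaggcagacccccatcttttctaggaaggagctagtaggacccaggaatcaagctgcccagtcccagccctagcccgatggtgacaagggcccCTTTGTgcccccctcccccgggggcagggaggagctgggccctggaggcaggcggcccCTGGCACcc
Mog (chr17:37023399-37023648, minus strand): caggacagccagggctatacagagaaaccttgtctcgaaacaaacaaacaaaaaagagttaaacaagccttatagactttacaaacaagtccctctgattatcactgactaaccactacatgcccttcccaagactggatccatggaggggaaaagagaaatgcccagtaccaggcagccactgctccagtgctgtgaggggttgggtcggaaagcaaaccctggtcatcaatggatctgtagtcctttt
Cnp (chr11:100574689-100574938, plus strand): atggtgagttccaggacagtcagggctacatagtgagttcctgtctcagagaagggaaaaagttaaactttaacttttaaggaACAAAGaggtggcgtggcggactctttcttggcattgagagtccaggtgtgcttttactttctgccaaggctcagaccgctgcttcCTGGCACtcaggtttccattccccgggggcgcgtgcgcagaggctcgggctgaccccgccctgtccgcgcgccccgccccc
Mobp (chr9:120149492-120149741, plus strand): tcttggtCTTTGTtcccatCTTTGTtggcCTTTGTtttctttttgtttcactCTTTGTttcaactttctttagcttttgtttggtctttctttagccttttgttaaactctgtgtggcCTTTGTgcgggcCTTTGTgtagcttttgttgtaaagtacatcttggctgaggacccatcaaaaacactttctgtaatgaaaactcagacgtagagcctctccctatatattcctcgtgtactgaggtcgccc

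Mal and Mog held none of the 3 motifs in this window. Mag held CTTTGT beginning 67 bases, and the Myrf letters beginning 9 bases, before its start. Cnp held the first motif at 167 and the Myrf letters at 81 bases, and Mobp held 6 copies of CTTTGT, between 243 and 120 bases before its start. Over all 27025 RefSeq promoters of this length, 16.5% held the first, 10.9% the second and 4.16% the Myrf letters. Of the 439 genes that were higher in oligodendrocytes than in every other type in every library, 326 had a promoter sequence, and 13.5%, 7.36% and 7.06% of these held the 3 motifs. The figures for all genes tested were 11.7%, 6.15% and 4.09% of 7559. Among 15 myelin genes with a sequence, 5 held the first, 2 the second and 3 the Myrf letters. A match says only that the letters are present.

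Genes of the myelin sheath had the highest median of the lists of function and stage examined. For each gene the log2 fold change of oligodendrocytes against the mean of the 7 other types was fitted over libraries, and a gene was counted as higher where it exceeded 1 and its CPM exceeded the other types' mean in each library, and as lower where the reverse held. Clusters had been set on the same genes of the same nuclei, so these values describe the cells and carry no test. Of 9789 genes tested, 891 (9.1%) were higher, 1755 (17.9%) lower, and 439 (4.48%) higher and above every other type in every library. Of 19 myelin genes, 17 were higher, 14 of them above every other type in every library, none was lower, and the median log2 fold change was 5.82 against -0.03 over all genes tested.

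Mog had a log2 fold change of 7.51 (SE 0.14), Mag of 7.42 (SE 0.15) and Mal of 7.04 (SE 0.16). Opalin, a transmembrane protein of the paranodal loops, reached 7.82 (SE 0.14) with 649.7 ± 156 CPM (mean ± SD, n = 10), and Hapln2, a link protein of the perinodal matrix, reached 7.44 (SE 0.15) with 325 ± 86.8 CPM. Mbp, the basic protein that holds the cytoplasmic faces of myelin together, was at 4474 ± 531 CPM with a log2 fold change of 5.82 (SE 0.13). Cldn11, the claudin of myelin tight junctions, had 6.45 (SE 0.16) and Ermn, a cytoskeletal protein of the outer loop, 6.72 (SE 0.17).

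Lower in this list stood genes that other types also use. Bcas1 had a log2 fold change of 5.47 (SE 0.15) against the mean of the other types but only 0.81 against OPCs, which held 555 CPM against 986 ± 189 in oligodendrocytes. Gpm6b, a membrane glycoprotein, was at 2027 ± 293 CPM against 1019.5 in astrocytes. Pmp22, a protein of peripheral myelin, and the tetraspanin Cd9 were not counted as higher, with log2 fold changes of 2.17 and 2.16, because some library did not exceed the other types' mean. OPCs held 521 CPM of Cd9 against 443 ± 159 in oligodendrocytes.

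**Figure D2:**
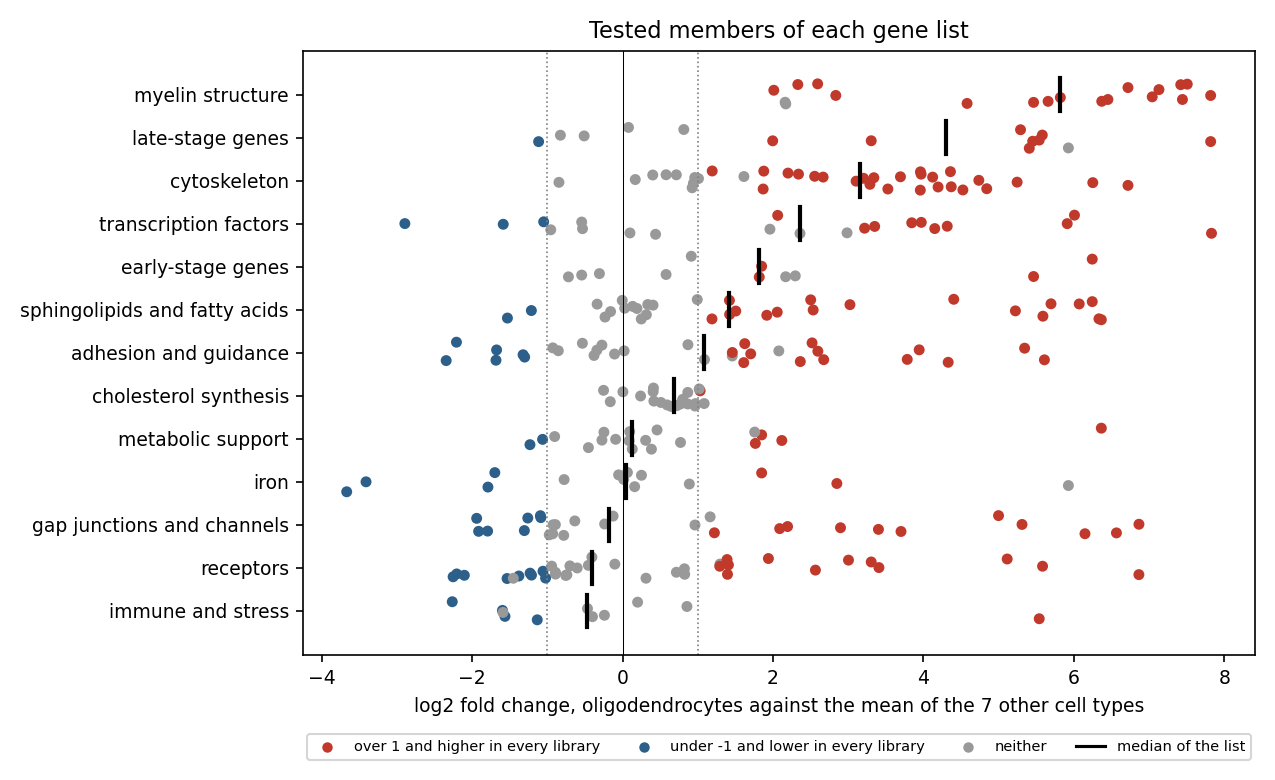
Log2 fold change of oligodendrocytes against the mean of the 7 other types (x axis) for each tested member of 13 gene lists (y axis), coloured red where higher, blue where lower and grey where neither, with a black line at the list's median and dotted lines at 1 and -1. The medians run from 5.82 for myelin structure to -0.47 for immune and stress genes.

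Lipid genes were examined in a list of sphingolipid and fatty acid metabolism and in a list of cholesterol synthesis. Of all tested genes, 9.1% were higher and 17.9% lower. Of 31 tested genes of sphingolipid and fatty acid metabolism, 17 were higher and 2 lower, with a median of 1.42. Aspa, which frees acetate from N-acetylaspartate for lipid synthesis, had a log2 fold change of 6.37 (SE 0.14) and was measured at 1155 ± 231 CPM. Fa2h, which hydroxylates the fatty acids of myelin galactolipids, had 6.33 (SE 0.14), and OPCs were next with 114 CPM against 801 ± 185. Enpp6, a choline phosphodiesterase known from newly formed oligodendrocytes, had 6.25 (SE 0.23). The 2 lower genes were the ceramide synthase Cers4 (-1.21) and the desaturase Fads2 (-1.53), for which astrocytes led with 386 CPM.

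Of 20 tested genes of cholesterol synthesis and its control, 1 was higher, where 9.1% of all tested genes were, and none lower, with a median of 0.68 and a range from -0.25 to 1.09. Idi1, which isomerises isopentenyl pyrophosphate, was the higher one at 1.03. Its level of 45.9 ± 16.1 CPM nevertheless lay below the 70.3 CPM of astrocytes. Insig1, which retains the sterol sensor in the endoplasmic reticulum, reached 1.09 without exceeding the others' mean in each library. Fdps, of the same pathway, had 4037 UMIs in the male set and 9 in the female set over all nuclei. A gene counted so unevenly can hardly exceed the others in each library, which limits the number counted as higher.

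Genes of the cytoskeleton of myelinating processes were mostly higher. Of 36 tested genes, 26 were higher, 21 of them above every other type in every library, and none was lower, with a median of 3.16. The shares of all tested genes in these 3 classes were 9.1%, 4.48% and 17.9%. After Ermn came Anln, an actin-binding scaffold of septin filaments, with 6.25 (SE 0.17) and 405 ± 86.1 CPM, and OPCs were the next type. Map6d1, a microtubule-stabilising protein, followed with 5.25 (SE 0.22). The lowest members were the kinesin Kif5b (0.17) and Cyfip1 (-0.85), a part of the complex that drives actin branching.

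Transcription factors differed in how they stood against OPCs. Of 21 tested, 10 were higher and 3 lower than in the other types, where 9.1% and 17.9% of all tested genes were. The median of these factors was 2.36. Against OPCs, 7 were higher and 4 lower, where 9.07% and 11.6% of all tested genes were. St18, a zinc finger factor, was at 3030.0 ± 614 CPM against 47.6 in OPCs, with a log2 fold change of 7.83 against all types and 68.7-fold the OPC level in the fit. Myrf stood at 202 ± 32.8 CPM against 12.0 (5.91 and 4.07). Nkx6-2, a homeobox factor of late differentiation, had 3.97 and 4.27, and Zfp536 had 4.32 and 2.59. These 4 were called higher in both comparisons.

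Sox10, the factor of the whole lineage, was high against all types (6.01) but close to OPCs (-0.02, SE 0.18), at 357 ± 97.8 against 368 CPM. Olig1 was at 307 ± 151 CPM against 615 in OPCs (-0.88), and Olig2 at 81.0 ± 36.9 against 311 (-1.84), neither of which was lower in every library. Sox5 and Sox6, which hold cells in the precursor stage, were lower in both comparisons. Sox5 was at 29.3 ± 13.9 CPM against 1009 in OPCs (-5.13, SE 0.28) and Sox6 at 66.7 ± 54.1 against 1548 (-4.71, SE 0.34). Hes5, a target of Notch signalling, was lower against OPCs only (-3.76).

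Against OPCs alone, 888 of the 9789 genes (9.07%) were higher and 1135 (11.6%) lower in oligodendrocytes, counting genes past 1 on the log2 scale with the same direction in each of the 9 libraries that had at least 10 nuclei of both types. Of the 19 myelin genes, 15 were higher and none lower. Of 14 tested genes of late stages, 8 were higher and none lower, while of 11 tested genes of the committed and newly formed stages 1 was higher and 3 lower. All 10 OPC markers were lower. Pdgfra, the receptor that drives precursor division, was at 4.16 ± 6.92 CPM in oligodendrocytes and 1216 in OPCs, and Ptprz1 at 102 ± 56.7 against 3178.

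**Figure D3:**
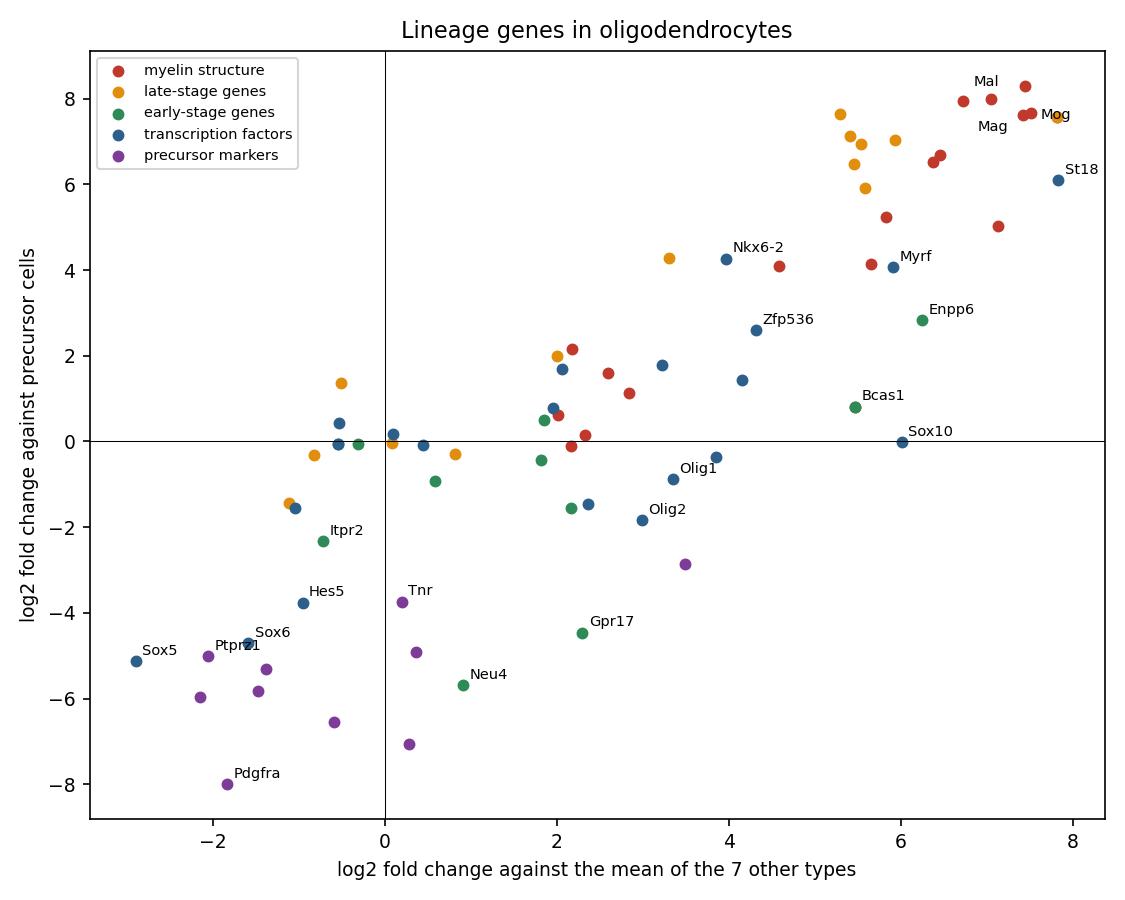
Log2 fold change of oligodendrocytes against the mean of the 7 other types (x axis) and against OPCs (y axis) for tested members of 5 lists, 1 point for each gene. Myelin and late-stage genes fill the upper right, Sox10 lies at -0.02 on the y axis, and Pdgfra lies lowest, at -7.99.

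Genes of the late and the committed stage varied in how many nuclei held them. Of the late-stage genes, Car2, the carbonic anhydrase of oligodendrocytes, had a log2 fold change of 5.58 (SE 0.12) against all types, Il33, a nuclear cytokine, 5.54 (SE 0.12), and Ptgds, a prostaglandin synthase, 5.45 (SE 0.22). Ptgds was found in 75.0 ± 10.0% of nuclei thinned to 1000 UMIs and Opalin in 35.1 ± 5.94%. Ptgds was nevertheless higher in fibroblasts (11654 CPM) than in oligodendrocytes (6130.5 ± 2665 CPM). Klk6, a protease of one mature class, did not pass the filter on low counts and was found in 1.35 ± 1.54%. Of the earlier genes, Enpp6 was found in 11.8 ± 3.77% of nuclei, while Gpr17, a receptor of committed precursors, was found in 0.825 ± 1.20% and stood at 19.4 ± 28.3 CPM against 379.6 in OPCs. Neu4, a sialidase of the same stage, was at 6.85 ± 9.64 against 296 CPM, and Bmp4 was at a median of 0 CPM over the 10 oligodendrocyte libraries, with a highest value of 74.4.

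Of the gap junction genes, Gjb1 and Gjc3, known from oligodendrocytes, were higher and the main astrocyte connexin was lower. Gjb1 (connexin 32) was at 114 ± 55.6 CPM with a log2 fold change of 6.87 (SE 0.21), and Gjc3 (connexin 29) at 864 ± 209.6 with 6.15 (SE 0.16). Gjc3 was also high in OPCs (506 CPM). Gja1 (connexin 43), the astrocyte partner, was lower, at 41.4 ± 9.77 against 1446 CPM in astrocytes. Of all tested genes, 9.1% were higher and 17.9% lower. In the whole list of 28 tested gap junction and channel genes, 11 were higher and 7 lower, with a median of -0.18. The lowest were the cation channel Trpm3 (-1.91) and the calcium pump Atp2b4 (-1.94).

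Adhesion and guidance genes held higher and lower members. Of 31 tested, 13 were higher and 6 lower, where 9.1% and 17.9% of all tested genes were. The lower count was near that share. Plxnb3, a semaphorin receptor, had 5.61 (SE 0.18), Cntn2, a contactin of the juxtaparanode, 5.35 (SE 0.12), and the ephrin Efnb3 4.33 (SE 0.14). Cntn2 was at 544 ± 70.6 CPM against 40.4 in neurons, the next type. Slit2 (-2.34) and Plxna4 (-2.21) were lowest.

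Of 37 tested receptor genes, 12 were higher and 9 lower, where 9.1% and 17.9% of all tested genes were. The median of the receptor genes was -0.41. Erbb3, a neuregulin receptor, had 6.87 (SE 0.22), S1pr5, the sphingosine-1-phosphate receptor of the lineage, 5.58 (SE 0.19), and Gpr37, an orphan receptor, 5.11 (SE 0.14). The growth factor receptors Fgfr1 (-2.25) and Ntrk3 (-2.20) were lowest. Of 19 tested genes of metabolic support, 4 were higher and 2 lower, where 9.1% and 17.9% of all tested genes were. Glul, glutamine synthetase, was higher at 2.12, with 701 ± 326 CPM beside 660.1 in astrocytes. The lactate transporter Slc16a1, chosen after its values were seen, was at a median of 53.3 CPM with 0.77, below the 198 CPM of endothelial cells.

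Of 14 tested iron genes, 2 were higher and 4 lower, where 9.1% and 17.9% of all tested genes were. Fth1, the ferritin heavy chain that stores iron, was at 5599.9 ± 4255 CPM with 2.85 (SE 0.12), and Fbxl5, an iron-sensing ligase part, had 1.85. The exporter Slc40a1 was at 0.232 ± 0.521 CPM. Trf, transferrin, was at 2500.2 ± 569 CPM in the male and 2.13 ± 2.85 in the female libraries. Over all nuclei of every type it had 10474 UMIs in the male set and 7 in the female set, so its female values are not read as a level of expression. The count of higher genes is limited by this, since a gene had to exceed the other types in each library. Of 11 tested immune and stress genes, 1 was higher, Il33, and 4 lower, where 9.1% and 17.9% of all tested genes were. The lower ones included B2m (-1.60), the light chain of class I molecules, and Cdkn1a (-2.26).

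Outside the lists, the 10 genes with the largest fold changes were Galnt5, Gm42756, Tnni1, Cyp2j12, Gm48508, C030029H02Rik, Sec14l5, Slc13a1, Gm44866 and 7630403G23Rik. Galnt5, which starts mucin-type glycosylation, was at 33.8 to 261 CPM in oligodendrocyte libraries and at a mean of 0.172 CPM in the next type. Tnni1, the slow skeletal troponin I, was at 95.3 to 213 CPM against 1.09 in the next type. C030029H02Rik, a long non-coding RNA on chr7:136268324-136318511, was at 525 to 1170.3 CPM against 2.57, and Sec14l5, a lipid-binding protein, at 331 to 925 CPM against 14.4. The lowest oligodendrocyte library lay above the mean of every other type for all 4.

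Marker genes of the other types were low in oligodendrocytes. The 12 neuron markers summed to 1549 ± 642 CPM (unscaled UMI sums, n = 10) against 18055 in neurons, with Snhg11 the most abundant. The 10 OPC markers summed to 616 ± 449 CPM against 16331 in OPCs (Tnr most abundant), the 10 astrocyte markers to 551 ± 179.9 against 13462 (Slc1a3), and the 8 microglial markers to 172 ± 94.5 against 15490. The 8 ependymal markers summed to 100.6 ± 52.1 CPM against 12531 in ependymal cells, with Ccdc153 the most abundant. The means in the male and female libraries were 55.4 and 130.8 CPM for ependymal, 93.5 and 224 for microglial and 401 and 759 for OPC markers, and 1645 and 1484 for neuron and 569.8 and 538 for astrocyte markers. Endothelial, fibroblast and pericyte markers summed to 8.02, 9.68 and 6.19 CPM. Of 7 Schwann cell markers, Pmp2 was at 0, and Cdh19 made up 400.7 of the 404.8 CPM. Doublet scoring marked 200 of all 20503 nuclei (0.975%), 49 of them oligodendrocytes.

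Oligodendrocytes made up 10.9 ± 1.90% of nuclei (SD, n = 10 libraries). The share was 8.27%, 12.9%, 10.9% and 14.6% in male libraries 1 to 4 and 11.8%, 9.65%, 9.08%, 10.5%, 11.3% and 9.59% in female libraries 1 to 6. The male libraries held both the lowest and the highest share, so the sets overlapped. The female mean was lower by 1.37 percentage points (10.3 ± 1.06% against 11.7 ± 2.73%), which did not pass the exact two-sided permutation test over all 210 ways of assigning the libraries (p = 0.305, adjusted p = 0.305 over 3 such tests, smallest possible p = 0.00476). Without male library 1 the difference was -2.51 points (exact permutation p = 0.0476), and among nuclei under 1% mitochondrial UMIs it was -4.46 points (exact permutation p = 0.0143). Without male library 4 the difference was -0.396 points (exact permutation p = 0.75). With non-neuronal nuclei as the denominator it was -1.22 points (exact permutation p = 0.643). Median mitochondrial UMIs of oligodendrocytes were between 0.192% and 1.96% in the male libraries and between 1.92% and 2.83% in the female libraries.

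Oligodendrocyte nuclei held fewer UMIs than neurons everywhere, and less so in the female libraries. Their median was 3225.5, 2737, 3226.5 and 2267.5 UMIs in the male libraries and 1615, 1459, 1481.5, 1462.5, 2309.5 and 1826 in the female libraries. As a ratio to the median of neurons in the same library, this was 0.153, 0.215, 0.204 and 0.180 in the male and 0.288, 0.231, 0.225, 0.239, 0.239 and 0.280 in the female libraries, with no overlap. The means of 0.188 ± 0.0276 and 0.250 ± 0.0266 differed by 0.0623 (exact permutation p = 0.00476, the smallest that this design can give, adjusted p = 0.0143). With means over nuclei in place of medians the ratios averaged 0.195 and 0.366, a difference of 0.171 (exact permutation p = 0.0143). Without the smaller cluster the difference of the medians' ratio was 0.0399 (exact permutation p = 0.00476). Depth moved with the ratio, since the median of neurons was 21085 UMIs in male library 1, which had the lowest ratio, and 5617 in female library 1, which had the highest, and its part cannot be told apart from that of the sets.

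The smaller cluster was unevenly spread over libraries and differed in its RNA. It made up 2.70%, 5.31%, 7.95% and 5.31% of oligodendrocytes in the male libraries and 24.5%, 6.31%, 9.09%, 4.55%, 20.3% and 17.1% in the female libraries. Female libraries 1, 5 and 6 stood above all others, while the remaining female libraries lay within or near the male range. The difference of means of 8.34 points did not pass the test (exact permutation p = 0.0714, adjusted p = 0.107). In the female libraries its nuclei had a median of 7847 UMIs and 4.02% mitochondrial UMIs against 1548.5 and 2.02% in the larger cluster. In the male libraries the medians were 1999 UMIs and 1.21% against 2495.5 and 0.741%, so that the order of UMIs was opposite in the pooled nuclei of the sets. Male library 2, with 6 nuclei of this cluster at a median of 13034.5 UMIs, was like the female libraries in this respect.

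**Figure D4:**
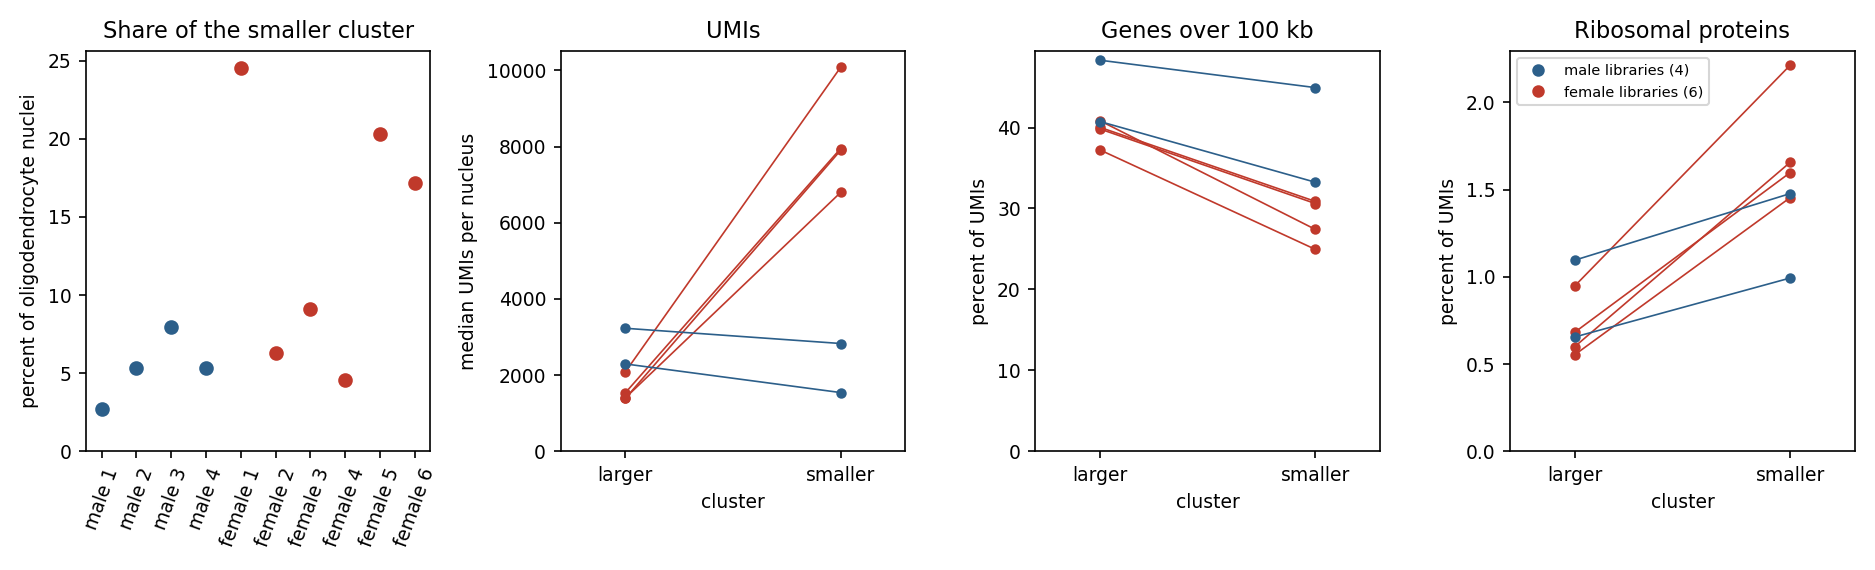
Share of the smaller cluster among oligodendrocytes of each library (first panel), and median UMIs per nucleus, percent of UMIs from genes over 100 kb and percent from ribosomal protein genes in both clusters (other panels), with 1 line for each library that had at least 10 nuclei in both clusters (blue male, red female). The share of genes over 100 kb was lower and that of ribosomal protein genes higher in the smaller cluster of each library drawn.

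Between the clusters, 250 of 4184 tested genes (5.98%) were higher and 58 (1.39%) lower in the smaller one in all 6 libraries with at least 10 of its nuclei, again without a test because the clusters were set on these genes. The genes named next were chosen after their values were seen, by size of fold change. Cryab, a small heat shock protein, was 9.02-fold higher in the fit (log2 3.17, SE 0.37), Fth1 8.12-fold (3.02, SE 0.36), Gamt, which makes creatine, 6.38-fold (2.67, SE 0.30) and Cnp, the cyclic nucleotide phosphodiesterase of non-compact myelin, 5.90-fold (2.56, SE 0.33). Cfl1, Tmsb4x, Ptma, Ftl1 and Fabp5 were also among the first 15. Those lower in the smaller cluster were led by Bcas1os2 (-2.76) and included 4930419G24Rik (-2.31). Genes over 100 kb gave 32.0 ± 6.97% of UMIs in the smaller cluster (n = 6) against 41.2 ± 4.32% in the larger (n = 10), non-coding RNA genes 8.79 ± 1.73% against 13.5 ± 2.54%, Malat1, a nuclear RNA, 4.58 ± 1.40% against 7.70 ± 1.98%, and ribosomal protein genes 1.56 ± 0.394% against 0.734 ± 0.273%. Of 19 myelin genes, 6 were higher and none lower, with a median of 0.88 against -0.08 over all genes. Of 26 tested adhesion genes, 1 was higher, with a median of -0.30. Depth and mitochondrial UMIs moved with the cluster, and their part in these values was not tested.

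The larger cluster was divided further by Leiden clustering after centring by library, leaving out the genes called between the sets of libraries. At the lowest of 3 resolutions this gave groups of 1329, 421, 329, 144 and 23 nuclei. Higher resolutions gave 6 and 8 groups of other sizes, and only the group of 23 kept its size. The groups described here are thus those of 1 resolution and are not all kept or simply split at the others. They are described by their leading genes and given no names. The largest group was led, within 1 unit on the log2 scale, by Slc13a1, Abca8a and Il33. The group of 421 nuclei was led by Agmo, which cleaves ether lipids (291 against 51.8 CPM in the rest), Enpp6 (384 against 90.3) and Cntn3 (375 against 101), and Klk6 was at 48.0 against 2.07 CPM. Both stage lists were nevertheless lower there, the early-stage list at 1752 against 1928 CPM and the late-stage list at 4879 against 7835. The group of 329 nuclei was led by the RNA 9630013A20Rik (354 against 18.7 CPM), Tnr, an extracellular matrix glycoprotein (606 against 89.5), the receptor Kit (137 against 13.3), and Synpr (584 against 115). In this group the OPC markers summed to 1011 against 514 CPM, the early-stage list to 2965 against 1672 and the late-stage list to 10943 against 6437. The OPC sum rested on Tnr, and the late-stage sum on Ptgds (7509 against 2321 CPM), and without that gene neither sum was higher in the group. The group of 144 nuclei was led by neuron genes, with neuron markers at 7951 against 1712 CPM and 16 nuclei marked as doublets, and the group of 23 by astrocyte genes, with astrocyte markers at 7686 against 421 CPM and 20 marked as doublets. No library lacked any of the 4 larger groups. Their shares ranged over libraries from 47.2 to 77.0%, from 11.0 to 23.6%, from 8.00 to 22.2% and from 3.00 to 8.28% of the larger cluster.

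Between female and male libraries, the genes that follow sex and many genes that the sets counted differently stood furthest apart. Xist, the RNA that coats the inactive X chromosome, was at 0 in all 4 male libraries and at 957, 1109, 1488, 1738, 917 and 1253 CPM in the female libraries. The Y-linked gene Uty was at 0 in all 6 female libraries and at 214, 134, 143 and 214 CPM in the male libraries, and Ddx3y averaged 101 ± 14.9 CPM in the male and 0.354 ± 0.868 in the female libraries. The libraries thus matched the deposited sex. Over the whole matrix, however, 1555 genes had at least 50 UMIs in the male set and none in the female set, and 496 the reverse, and only 17513 of 33502 genes reached 20 UMIs in each set.

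In the edgeR quasi-likelihood test with Benjamini-Hochberg adjustment, 545 of 6599 genes tested in oligodendrocytes (8.26%) were higher in the female libraries and 276 (4.18%) lower. The number higher rested on single libraries, with 882 without male library 2, 281 without male library 4, 318 without female library 1 and 286 without female library 5. Among the 6362 that were counted in both sets, 451 (7.09%) were higher and 133 (2.09%) lower. The 8 genes with the smallest p among those counted in both sets included 1700030F04Rik, at 0.125 ± 0.249 CPM in the male and 182 ± 24.8 in the female libraries, and Atf7, a transcription factor, at 215 ± 29.9 and 0.816 ± 1.39 CPM. Pakap, Umad1 and Stard13 were likewise high in the male libraries. Pakap averaged 982 ± 235 against 50.6 ± 14.7 CPM and Stard13 442 ± 78.8 against 23.0 ± 11.8. Their male and female ranges did not overlap, and the test of whether their contrast differed from that of the other types (the interaction described last) gave adjusted p from 0.674 to 1.

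The 19 myelin genes were all tested in this contrast and counted in both sets. Of these, 4 were higher in the female libraries and none was lower. Among all genes counted in both sets, 7.09% were higher and 2.09% lower. The median log2 difference of the myelin genes was 0.30, against -0.03 over the genes counted in both sets. Cnp averaged 532 ± 429 CPM in the male libraries (172, 1145, 498 and 314) and 1861 ± 783 in the female libraries (2725, 973, 1461, 1074, 2550.1 and 2385), a log2 difference of 1.85 (SE 0.47, adjusted p = 0.0163). Male library 2 lay among the female libraries, and the others below all of them. Plekhb1, a membrane protein with a pleckstrin domain, had 1.29 (SE 0.30, adjusted p = 0.00996), Ermn 1.28 (SE 0.39, adjusted p = 0.0451) and Omg 0.77 (SE 0.24, adjusted p = 0.049). Mal (0.61, SE 0.40, adjusted p = 0.344), Mag (0.30, SE 0.20, adjusted p = 0.36) and Mog (0.11, SE 0.24, adjusted p = 0.812) did not pass. Of 14 late-stage genes tested against types, 10 were tested here and 2 were higher, Apod, a lipid carrier (0.82, SE 0.25, adjusted p = 0.0424), and S100b, a calcium-binding protein (1.44, SE 0.30, adjusted p = 0.0043). Fth1 was at 1742 ± 1940.0 CPM in the male and 8172 ± 3238 in the female libraries (2.26, SE 0.58, adjusted p = 0.0186).

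Microglial, ependymal and OPC markers were also higher on average in the female libraries, as given above, and their part in this contrast was not tested. The smaller cluster moved with these values. Without it, 158 of 4945 genes were higher and 155 lower in the female libraries. None of the 7 genes Cnp, Plekhb1, Ermn, Omg, Apod, S100b and Fth1 passed then. The log2 difference was 0.18 (adjusted p = 0.875) for Cnp, -0.03 (adjusted p = 0.985) for Plekhb1, 0.18 (adjusted p = 0.854) for Ermn and 0.64 (adjusted p = 0.316) for Omg. It was 0.46 (adjusted p = 0.263) for Apod, 0.86 (adjusted p = 0.0525) for S100b and 0.77 (adjusted p = 0.272) for Fth1. Mal had a log2 difference of -0.58 and Mog of -0.02. How much of the remaining difference came from depth, annotation or sex cannot be told apart, as the sets differ in all of these.

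To set aside what every type of a library shared, the female contrast in oligodendrocytes was compared with its mean in the 7 other types. In this interaction test (edgeR, 9789 genes) 47 genes (0.48%) had a more positive and 6 (0.0613%) a more negative difference in oligodendrocytes. Of the 19 myelin genes 1 did, Cnp, at 1.41 (SE 0.35, adjusted p = 0.0334), and without the smaller cluster it was at -0.37 (adjusted p = 0.737).

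Traf5, an adaptor of TNF receptor signalling, had the smallest p, with a difference of 4.04 (SE 0.37, adjusted p = 3.54e-12). It was at 0, 21.3, 5.47 and 4.49 CPM in the male and 442, 153, 231, 125, 501 and 413 CPM in the female oligodendrocyte libraries. The sets did not overlap.

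Tnr was at 47.0, 36.4, 93.0 and 131 CPM in the male libraries and at 701, 1352, 276, 35.6, 281 and 215 in the female libraries, an interaction of 3.18 (SE 0.52, adjusted p = 0.00027). Female library 4 lay below all male values, and female libraries 1 and 2 stood far above the rest. The share of nuclei with Tnr did not follow this. After thinning to 1000 UMIs it was 7.52% and 8.33% in female libraries 1 and 2. It was 2.78% to 10.2% in the male libraries, highest in male library 4. Itpr2, a calcium release channel of the endoplasmic reticulum known from newly formed oligodendrocytes, was at 36.6, 30.4, 44.6 and 36.4 CPM in the male and at 198, 261, 67.8, 17.8, 75.4 and 60.5 in the female libraries (2.10, SE 0.35, adjusted p = 0.00027), with the same female libraries at the top and bottom. The OPC marker sum moved with both genes. It was 1024 and 1734 CPM in female libraries 1 and 2 and 348 in female library 4. In the male libraries it was 229 to 610, and Tnr itself was its most abundant member. Of other early genes, Pdgfra averaged 2.86 ± 3.31 CPM in the male and 5.02 ± 8.79 in the female libraries. Gpr17 was found in 2.26% and 3.57% of nuclei thinned to 1000 UMIs in female libraries 1 and 2. In female library 4 it was found in 0%, and in the male libraries in 0 to 0.461%. Neu4, at low levels, had an interaction of 6.05. The part of the OPC marker sum in the result was not tested. Tnr and Itpr2 were also among the leading genes of the group of 329 nuclei described above, whose share of the larger cluster was 16.3% and 11.5% in female libraries 1 and 2 and 16.2% in female library 4.

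Etv1, an ETS factor, averaged 84.4 ± 44.3 and 235 ± 83.7 CPM (1.84, SE 0.34, adjusted p = 0.00135), Gng11, a G protein subunit, 127 ± 113 and 377 ± 195 (1.93, SE 0.34, adjusted p = 0.000662), and Qdpr, which recycles tetrahydrobiopterin, 424 ± 313 and 985 ± 291 (1.62, SE 0.28, adjusted p = 0.000662). Among the genes named for this comparison, only the long non-coding RNA 9330111N05Rik (chr13:80964074-81079857) had the opposite sign (-2.05, SE 0.38, adjusted p = 0.00143). It was at 815, 188, 477 and 489.9 CPM in the male and 198, 288, 235, 249, 261 and 292 in the female libraries. Male library 2 was the lowest of all, and the other male libraries lay above every female one.

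**Figure D5:**
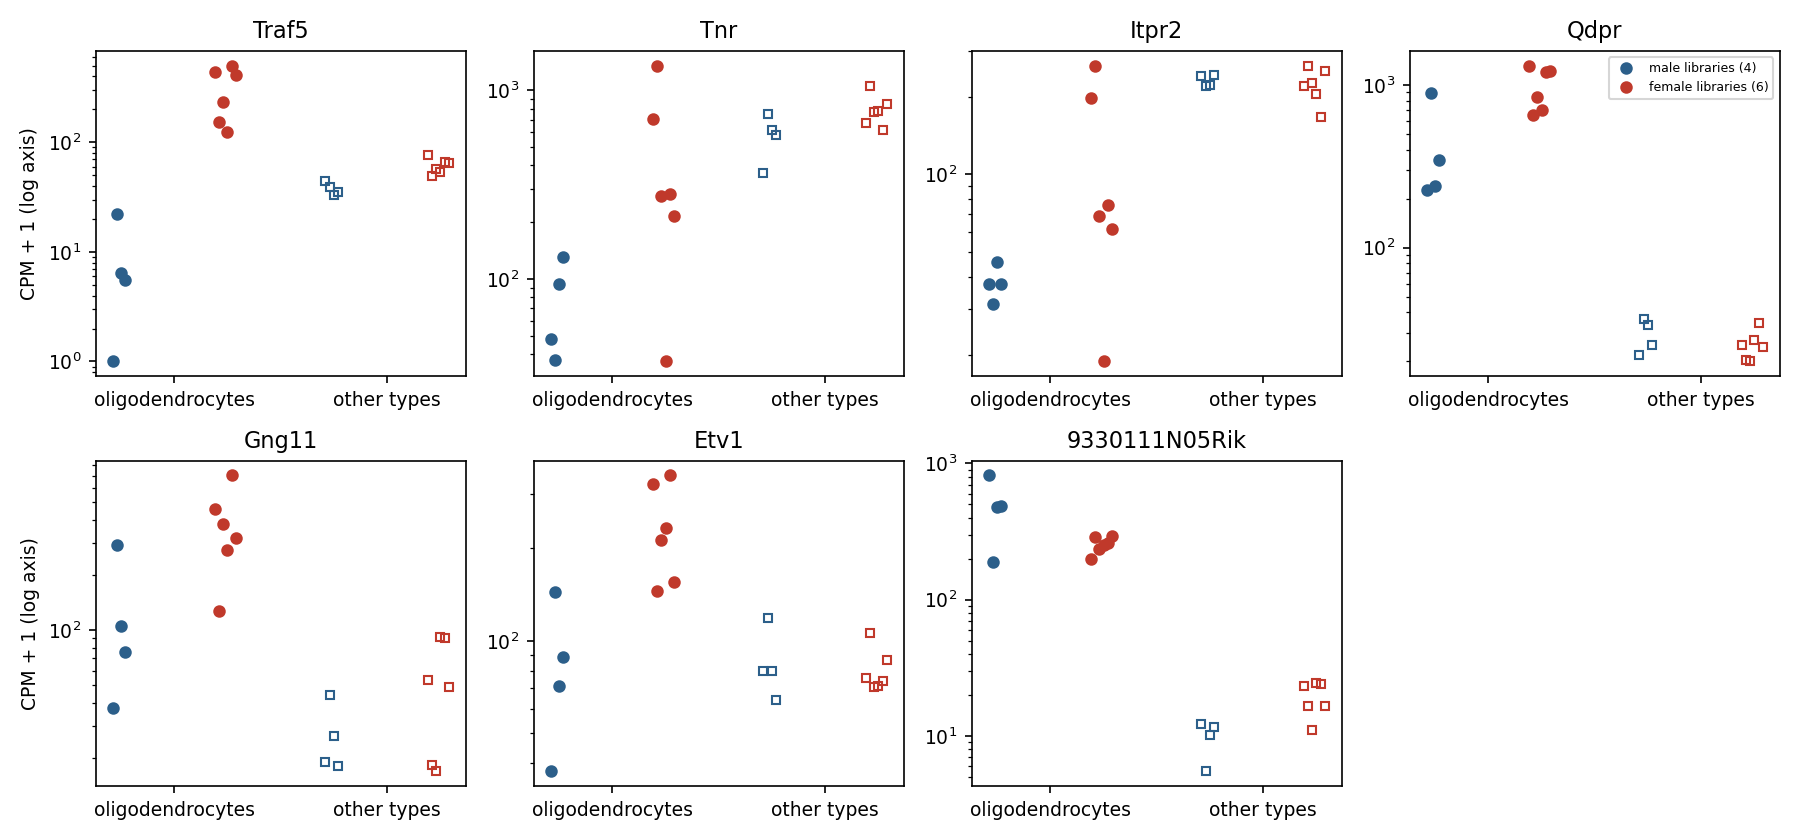
Level (y axis, CPM + 1, log axis) of 7 of the 8 genes with the smallest interaction p among genes counted in both sets, in oligodendrocytes (filled circles) and as the mean of the other types (open squares) of each library (blue male, red female). Traf5 and Etv1 in oligodendrocytes do not overlap between the sets, and 9330111N05Rik is higher in 3 of 4 male libraries.

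Without the smaller cluster, 28 genes were more positive and 6 more negative. Traf5 (2.19), Tnr (3.43), Itpr2 (2.21) and 9330111N05Rik stayed past the threshold. Qdpr turned to -0.17 (adjusted p = 0.958), Gng11 stood at 0.27 and Etv1 at 0.70, and none of these 3 passed. The interaction count also rested on single libraries, since 6 genes were more positive without male library 3 and 8 without male library 4.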

How the data were processed

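Per the labels and the study's methods, nuclei from pooled PVT punches were isolated by detergent-mechanical lysis and a sucrose gradient and captured with 10x Genomics 3′ chemistry. The authors deposited raw UMI counts per gene and nucleus, with cluster names, and the submitters' processing notes name Cell Ranger 6.1.1 and mm10, while the study's methods name an earlier Cell Ranger version. The authors deposited the mitochondrial share per nucleus as a percent of UMIs, and the highest was 4.99%. Clusters that the authors called low quality or doublets had been left out. Of 27 deposited columns per nucleus, 20 were not used. The matrix holds 33502 genes and 20503 nuclei. Mitochondrial genes carried 562659 UMIs in the female set and 0 in the male set, so 13 of them were left out of sums and tests.

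UMI counts were summed per library and cell type (at least 10 nuclei) and fitted in edgeR 4.0.16 (R 4.3.3) with TMM scaling, filterByExpr, quasi-likelihood tests, library as a block between types, and Benjamini-Hochberg adjustment, called at an adjusted p of 0.05. The study's Wilcoxon test over nuclei was not used, since nuclei are not replicates. Libraries are separate samples of pooled mice. Shares were compared by exact permutation over libraries. Intervals of counting error are not given where libraries give the spread. Oligodendrocyte UMI sums ranged from 198353 to 2446196 per library, and the shallowest library limits low genes most. Doublets were scored with Scrublet in scanpy 1.11.5. Groups within the larger cluster were found with scikit-learn 1.9.0 (10 principal components, 20 neighbours) and Leiden clustering in igraph 0.11.9 (resolution 0.3). This used 12578 genes, leaving out 608 called between the sets. Genes were matched to their length and class for 32130 symbols. Fits were tested on simulated data.

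The members and gene lists were chosen with earlier results of these data known. Named were Mal, Mag and Mog, every member of the lists of myelin, stages and transcription factors that the text draws on, the 3 highest and 2 lowest tested members of each other list, the 10 highest genes outside the lists, the 8 genes with the smallest p in the female contrast and in the interaction among genes with at least 20 UMIs in each set, and Xist and Y-linked genes as a check of labels. Some genes that this rule names are not reported here. Other named genes were chosen after their values were seen. Alternatives were DESeq2 1.42.0, other scalings and filters, leaving out each library, doublets or the smaller oligodendrocyte cluster, and a replicate block.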

Additional observations from a re-analysis of the deposited data

Results flagged for a closer look

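In the test of whether the female contrast differs between oligodendrocytes and the other types, 7 genes are given of the 8 with the smallest p among genes counted in both sets. The log2 difference was 4.04 for Traf5, 3.18 for Tnr, 2.10 for Itpr2, 1.62 for Qdpr, 1.93 for Gng11, 1.84 for Etv1 and -2.05 for 9330111N05Rik.

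Within the larger cluster, the group of 421 nuclei led by Agmo and Enpp6 made up 17.9% in male library 4, far from the 23.6%, 23.4% and 22.7% of the other male libraries for their spread. This was the 1 sample that stood apart in this way among 22 groups of libraries checked over 11 measures, and chance alone marks about 1 in 20 such groups. The female libraries ranged from 11.0 to 22.8% for this group, and the value of male library 4 lay within that range. It rested on 179 of 998 nuclei, and those of male libraries 1 to 3 on 17 of 72, 25 of 107 and 92 of 405.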

How the results depend on the processing

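The counts of genes higher or lower than in other types, of 9789 tested, moved past 1.5 times in 2 settings that tested more genes. Without the filter on low counts 2701 of 28832 were lower, and with all other nuclei as one sum 1542 of 13610 were higher and 2905 lower. In the female contrast, 1303 of 21653 genes were higher and 1264 lower without the filter, 341 and 92 when only genes counted in both sets were fitted, and 158 and 155 without the smaller cluster. The female contrast did not pair libraries by replicate number. Deviations of same-numbered libraries from the mean of their set correlated at -0.196, -0.352, -0.130 and 0.0063. Those of differently numbered libraries correlated at -0.473 to 0.414, so the same-numbered ones did not stand apart. Deviations from a mean of few libraries depend on each other, so these values cannot decide whether the numbers pair. With the replicate block 107 were higher and 158 lower, against 152 and 172 in the same libraries, replicates 1 to 4, without it. In the interaction, 75 genes were positive without the filter and 28 without the smaller cluster. The share of oligodendrocytes differed by -4.46 points among nuclei under 1% mitochondrial UMIs. Settings marked here as without the smaller oligodendrocyte cluster, and the unblocked fit of replicates 1 to 4, were chosen after seeing the data.

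Leaving out each library in turn gave 281 to 882 genes higher in the female libraries, 6 to 61 positive and 1 to 14 negative interactions, a difference in share of -2.51 to -0.396 points and a UMI ratio difference of 0.0506 to 0.0712. With means over nuclei the UMI ratio differed by 0.171. Higher genes numbered 882 without male library 2, 281 without male 4, 318 without female 1 and 286 without female 5. Positive and negative interactions numbered 6 and 1 without male 3, 8 and 3 without male 4, and 24 and 2 without female 5. Without female 1 there were 20 positive ones. Negative ones numbered 14 without male 2, 11 without female 4 and 3 without female 6. The share differed by -2.51 points, past the threshold, without male library 1.

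Signs turned for some genes. Without the smaller cluster the female contrast was -0.58 for Mal (0.61 with it), -0.021 for Mog (0.11) and -0.39 for Qdpr (1.28), and the interaction of Qdpr was -0.17 (1.62). The female contrast of Plekhb1 was -0.03 (1.29) and the interaction of Cnp -0.37 (1.41). Leaving out each library, Mog ranged from -0.055 without male library 4 to 0.361 without male library 2, and was at -0.045 without male library 1. The causes were not tested. Low genes are limited by the shallow female libraries.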
